A study of Mus musculus with 6 samples.

Results

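Transforming growth factor beta (TGF-beta) ligands, the proteins that hold them in latent form and their receptors were followed in osteoblasts, the bone-forming cells, of mouse calvaria (the flat bones of the skull). The group was set by name as 10 genes, and was chosen with earlier results of these data known. It held the ligands Tgfb1, Tgfb2 and Tgfb3, the latent TGF-beta binding proteins Ltbp1 to Ltbp4 and the receptors Tgfbr1, Tgfbr2 and Tgfbr3. All 10 were found among the 27179 gene IDs of the table, and all 10 passed the filter on low counts, which kept 13505 IDs. RNA sequencing compared 3 libraries labelled Cdc73/Hrpt2 KO, titled Flox 1 to 3 and called knockout here, with 3 labelled Wildtype. All cells came from C57Bl/6J pups aged 5 days and in both groups were sorted for a GFP transgene that depends on Osteocalcin-Cre, a recombinase driver active in mature osteoblasts. The labels do not say whether each library is 1 animal or a pool, and p-values therefore measure the spread between these libraries, which may be partly technical.

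TGF-beta is made as a precursor whose cleaved propeptide stays wrapped around the mature ligand and keeps it inactive. Latent TGF-beta binding proteins attach to this propeptide and tether it to fibrillin and fibronectin fibres, and bone matrix is a large store of such latent ligand, which resorption can release. Once free, the ligand binds the type II receptor, which activates the type I receptor, and this in turn phosphorylates Smad2 and Smad3.

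The libraries held 13591925 to 20993962 counts. Osteoblast markers were abundant in all of them: Col1a1, the main collagen chain of bone, measured 143520 to 214900 CPM (counts relative to the library total after TMM scaling), and none of the 14 osteoblast markers was at 0 in any library. Of these 14, 11 had negative fold changes (median -0.28), 3 of them at an unadjusted p under 0.05 (6.35% of all genes), and 0 passed the adjusted threshold. Sp7, a transcription factor of osteoblasts, stood at 0.652 times the wildtype level without overlap, and Dmp1, a matrix protein gene of osteocytes, at 1.34 times without overlap. Markers of other cells were present too. All tested chondrocyte, endothelial, macrophage and neutrophil markers had positive fold changes, with 0 called, where 0 of all 13505 genes were called. At an unadjusted p under 0.05, 13 of 13 chondrocyte and 8 of 12 endothelial markers were higher (8.26% of all genes). So were 11 of 14 macrophage and 6 of 10 neutrophil markers. Median log2 fold changes were 2.11 (chondrocyte), 1.29 (endothelial), 1.05 (macrophage) and 1.6 (neutrophil), beside -0.01 over all genes. Summed over 13 markers, chondrocyte genes measured 11829 to 26664 CPM in knockout against 3554 to 10098 in wildtype, and 12 endothelial markers summed to 146 to 256 against 55.0 to 148 CPM. Macrophage markers (14 genes) summed to 167 to 403 against 107 to 151 CPM and neutrophil markers (10 genes) to 61.8 to 200 against 21.9 to 59.9 CPM. Platelet sums (14.4 to 25.9 against 15.2 to 18.8 CPM), mural cell sums (281 to 346 against 229 to 353) and skeletal muscle sums (5.76 to 30.5 against 5.85 to 44.9) overlapped, with 5 of 7 tested mural and 5 of 6 tested muscle markers negative. Wildtype 1 had the highest chondrocyte and endothelial sums of its group. Cdc73 itself, the deleted gene, measured 13.98, 14.7 and 14.4 CPM in knockout 1, 2 and 3 against 20.5, 12.8 and 21.7 CPM in wildtype 1, 2 and 3. The library labelled wildtype 2, called wildtype 2 here, thus lay below all knockout libraries, against its label, and results are also given without it. The groups overlapped (log2 fold change -0.36 ± 0.22, adjusted p = 0.428 in edgeR's quasi-likelihood test). Reads from any exon outside the deleted part, which the labels do not give, also count towards this gene.

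No member of the TGF-beta group passed the threshold of 0.05 after Benjamini-Hochberg adjustment over all genes (edgeR's quasi-likelihood test), and over all genes 0 of 13505 passed (0%). The largest differences were in the ligand Tgfb2, at 1.76 times the wildtype level, and the receptor Tgfbr2, at 1.52 times. These were also the 2 of 10 members with an unadjusted p under 0.05, both higher in knockout, where 8.26% of all genes were higher at that level, 6.35% lower and 14.6% one or the other. In 3 of 10 members, Tgfb2, Tgfbr2 and Ltbp3, all knockout libraries exceeded all wildtype libraries, against 10.6% of all genes, and in 0 of 10 the reverse held, against 9.81%. Log2 fold changes were positive in 7 members, where 49.3% of all genes were positive, and negative in 3, with a median of 0.19 beside -0.01 for all genes. With libraries scaled by total count alone, the median of all genes was -0.21 and that of the members -0.01, 4 of 10 members were positive and in 0 of 10 did the knockout libraries stand higher without overlap, against 2.18% of all genes. Without wildtype 2, 0 members were called, 9 were positive, and in 4 (Tgfb2, Tgfb3, Ltbp3 and Tgfbr2) the knockout libraries stood higher without overlap, against 14.9% of all genes.

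**Figure D1:**
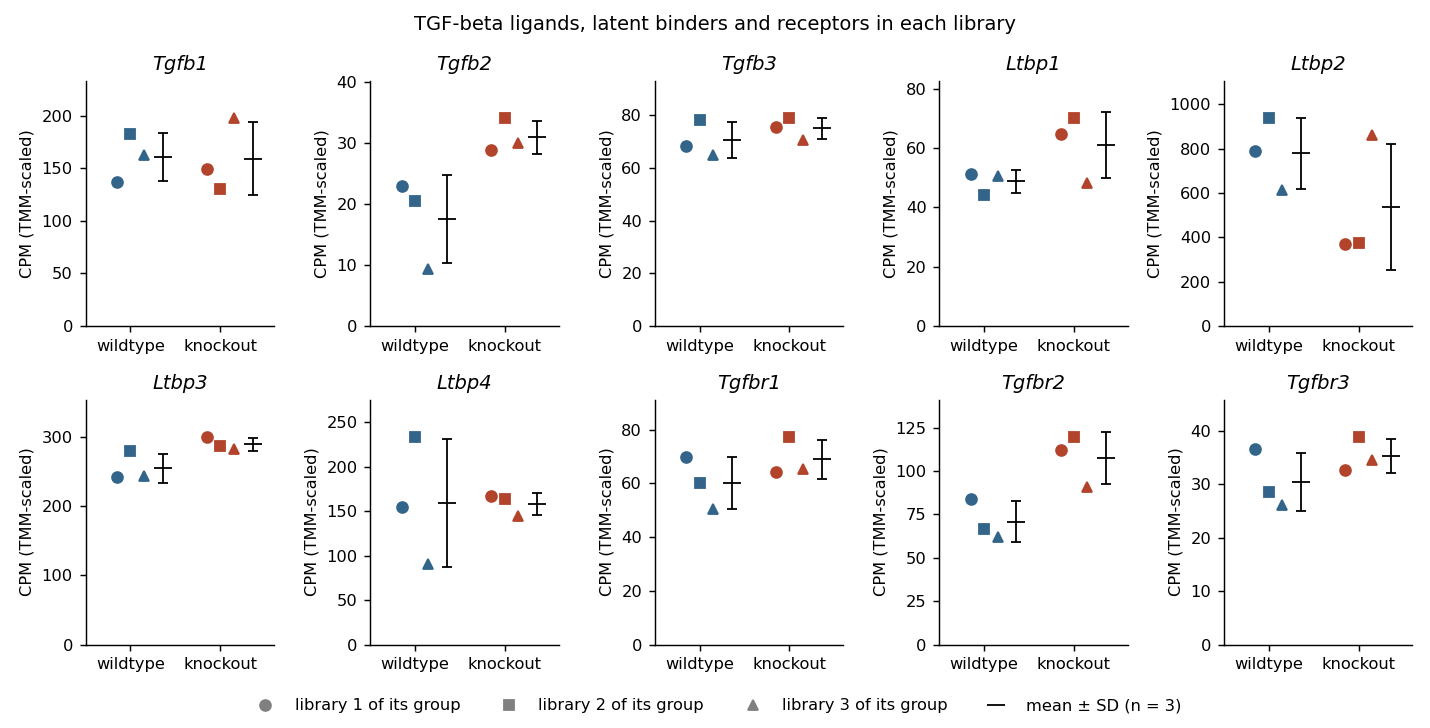
CPM of the 10 members (vertical axes, from 0) in the wildtype and knockout libraries, with the mean and SD of each group (n = 3). The groups do not overlap for Tgfb2, Tgfbr2 and Ltbp3, and Ltbp2 is split within the knockout group, at 368, 374 and 863 CPM.

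The ligands differed in abundance and in the comparison. Per kb of merged exons, the scale on which genes can be compared, Tgfb1 was the most abundant at 25.8 to 39.2 CPM per kb over the 6 libraries, followed by Tgfb3 at 19.2 to 23.3 and Tgfb2 at 1.62 to 5.88. These ranges did not overlap. Within the summed ligand signal per kb, Tgfb1 made up 53.0% ± 6.61 in knockout and 57.1% ± 4.05 in wildtype, Tgfb3 37.9% ± 5.31 and 37.4% ± 1.77, and Tgfb2 9.13% ± 1.41 and 5.47% ± 2.35 (SD, n = 3 each). Measured against the longest transcript instead, which is shorter than the merged exons of Tgfb1, Tgfb1 stood at 50.6 to 76.8 CPM per kb and the order was the same.

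Tgfb1 (gene ID 21803, mm10 chr7:25687002-25705077, plus strand), the isoform best known from bone matrix, measured 149, 130 and 198 CPM in knockout 1, 2 and 3 and 137, 182 and 163 CPM in wildtype 1, 2 and 3. The groups were interleaved, with both the lowest and the highest value in knockout. The means were 159 ± 34.7 and 161 ± 22.9 CPM, a log2 fold change of -0.01 ± 0.20 (adjusted p = 0.979). Tgfb3 (gene ID 21809, chr12:86056745-86079041, minus strand), which is needed for palate fusion, measured 75.5, 78.7 and 70.6 CPM in knockout against 68.5, 78.2 and 64.8 CPM in wildtype. Its groups overlapped, and its difference of 0.09 ± 0.15 was within 1 standard error (adjusted p = 0.772).

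Tgfb2 (gene ID 21808, chr1:186622792-186705989, minus strand), the isoform whose loss in mice causes craniofacial and skeletal defects, was the ligand that differed most. It measured 28.9, 34.1 and 30.0 CPM in knockout 1, 2 and 3 (481, 490 and 365 counts). In wildtype 1, 2 and 3 it measured 23.0, 20.4 and 9.37 CPM (526, 294 and 157 counts). The knockout libraries lay close together, and wildtype 3 was far below the other wildtype libraries. The means were 31.0 ± 2.72 and 17.6 ± 7.24 CPM, a log2 fold change of 0.81 ± 0.29 (unadjusted p = 0.0196, adjusted p = 0.302). The log2 fold change was 0.50 without wildtype 3, 0.92 without wildtype 2 and 1.04 without wildtype 1 (adjusted p = 0.0762), and 0.42 against wildtype 1 alone. Over the 16 alternatives the adjusted p lay between 0.0762 and 0.947. The ratio of Tgfb3 to Tgfb2 counts, in which library scaling cancels, was 2.62, 2.31 and 2.35 in knockout against 2.98, 3.82 and 6.91 in wildtype, without overlap. The ratio of Tgfb2 to Tgfb1 counts did overlap, at 0.193, 0.262 and 0.152 against 0.168, 0.112 and 0.0576. The part of the cell type marker sums given above in the Tgfb2 difference was not tested.

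The sequences upstream of Tgfb1 and Tgfb2 are shown because these ligands share a role but behaved differently here, one being abundant with interleaved groups and the other scarce with separate groups. Each is the 250 bases before the annotated transcription start in RefSeq (GRCm38.p6), in lower case, with capitals marking matches on either strand to a TATA box (TATAAA) or a GC box (GGGCGG).
Tgfb1, chr7:25686752-25687001, plus strand: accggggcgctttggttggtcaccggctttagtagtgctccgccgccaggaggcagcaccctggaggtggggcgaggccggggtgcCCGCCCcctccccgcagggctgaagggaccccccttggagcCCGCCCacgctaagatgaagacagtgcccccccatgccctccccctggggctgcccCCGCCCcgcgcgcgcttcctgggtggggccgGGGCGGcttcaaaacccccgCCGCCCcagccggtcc
Tgfb2, chr1:186705990-186706239, minus strand: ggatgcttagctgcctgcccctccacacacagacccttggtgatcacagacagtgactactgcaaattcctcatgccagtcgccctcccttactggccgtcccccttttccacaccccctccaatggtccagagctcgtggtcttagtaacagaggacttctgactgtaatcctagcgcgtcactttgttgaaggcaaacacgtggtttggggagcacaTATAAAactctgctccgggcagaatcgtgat
The Tgfb1 window held 5 GC box matches and 0 TATA box matches and had a GC content of 75.2%, where the median over 32851 windows of this length was 52.4%. The Tgfb2 window held 1 TATA box match, starting 31 bases before the start site, and 0 GC box matches, with a GC content of 53.6%. Over all windows 12.4% held TATAAA and 32.7% held GGGCGG. The windows were also searched for the cAMP response element TGACGTCA (1.55% of all windows) and the AP-1 element TGANTCA (6.75%), and neither window held these letters. Windows were given for 8 of the 10 members, with none for Tgfb3 and Tgfbr3.

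Among the latent TGF-beta binding proteins, Ltbp2 was the most abundant per kb, and no binder passed the test. Ltbp2, a fibrillin-binding protein that does not itself bind latent TGF-beta, stood at 45.0 to 114 CPM per kb of merged exons over the 6 libraries. Ltbp3, which carries latent TGF-beta and is needed for normal skull and tooth growth, followed at 26.7 to 33.1 and Ltbp4, a binder that also takes part in elastic fibre assembly, at 14.01 to 36.2, so that the last 2 overlapped. Ltbp1, which binds the latent form of every TGF-beta isoform, was lowest at 4.14 to 6.55.

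Ltbp2 (gene ID 16997, chr12:84783212-84876532, minus strand) measured 368, 374 and 863 CPM in knockout 1, 2 and 3 and 787, 937 and 616 CPM in wildtype 1, 2 and 3. Knockout 1 and 2 lay below every wildtype library, and knockout 3 lay within the wildtype range. The means were 535 ± 284 and 780 ± 161 CPM, a log2 fold change of -0.54 ± 0.33 (adjusted p = 0.430). The log2 fold change was -0.40 without wildtype 2 and -1.09 ± 0.23 without knockout 3 (adjusted p = 0.190), and over all 16 alternatives the adjusted p lay between 0.173 and 0.982. Osteoblast markers, a sum made up mostly of Col1a1 and Col1a2, reached 242360 and 237660 CPM in knockout 1 and 2. The sum was 351740 CPM in knockout 3 and 281890 to 307910 CPM in wildtype. Knockout 3 had the lowest TMM factor (0.813, against 0.971 to 1.09 in the other libraries), which raises its CPM. The place of its osteoblast sum above wildtype depends on this scaling. The part of the osteoblast sum in the Ltbp2 difference was not tested. In bulk libraries, fewer cells of a type and less RNA per cell cannot be told apart. The share of Ltbp2 in the summed signal of the 4 binders per kb was 40.8%, 41.8% and 64.5% in knockout and 61.7% to 63.5% in wildtype.

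Ltbp3 (gene ID 16998, chr19:5740904-5758532, plus strand) measured 301, 287 and 283 CPM in knockout against 242, 279 and 243 CPM in wildtype. The groups did not overlap, but the lowest knockout value was only just above wildtype 2, and the difference was small (0.19 ± 0.16, adjusted p = 0.551). Ltbp1 (gene ID 268977, chr17:75005568-75392512, plus strand) measured 64.6, 70.0 and 48.4 CPM in knockout against 51.2, 44.3 and 50.7 CPM in wildtype. Knockout 3 lay within the wildtype range and the others above it (0.32 ± 0.17, adjusted p = 0.391). Ltbp4 (gene ID 108075, chr7:27305136-27337692, minus strand) measured 168, 163 and 144 CPM in knockout against 154, 234 and 90.5 CPM in wildtype. Its wildtype libraries spread on both sides of the knockout libraries, with an SD of 71.8 CPM against 12.5, and its difference was -0.01 ± 0.29 (adjusted p = 0.991).

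**Figure D2:**
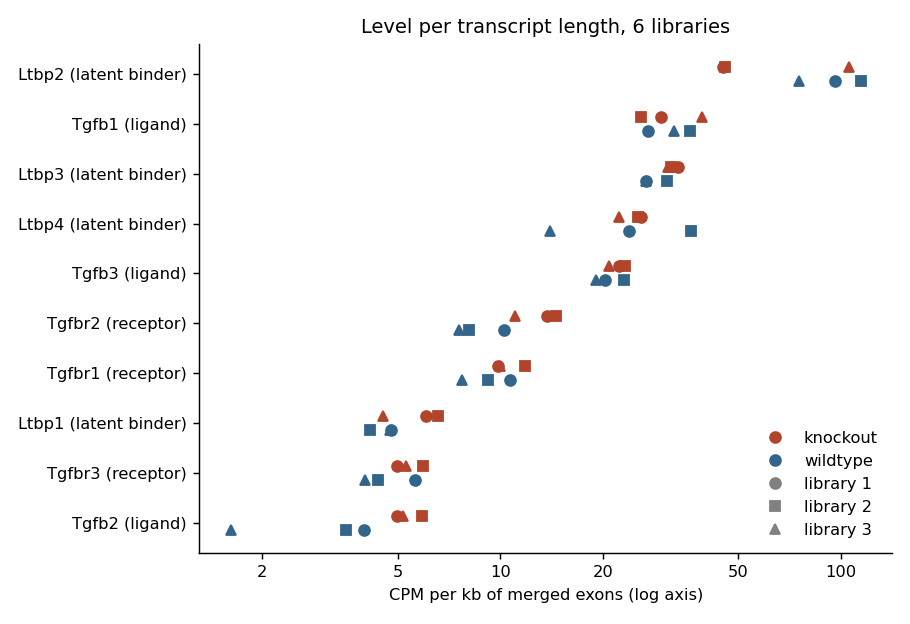
CPM per kb of merged exons (log axis) of the 10 members in each library, ordered by the mean over 6 libraries. Ltbp2 is highest at 45.0 to 114, Tgfb2 lowest at 1.62 to 5.88, and the receptors lie between 3.996 and 14.6.

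All 3 receptors had positive fold changes in the main fit, and Tgfbr2 was the member with the smallest p. Tgfbr2 (gene ID 21813, chr9:116084293-116175360, minus strand), the type II receptor that binds the ligand first, measured 112, 120 and 90.6 CPM in knockout 1, 2 and 3 (1865, 1721 and 1101 counts). In wildtype 1, 2 and 3 it measured 83.9, 66.5 and 62.0 CPM (1920, 956 and 1038 counts). The groups did not overlap, with knockout 3 and wildtype 1 nearest to each other. The means were 107 ± 15.0 and 70.8 ± 11.6 CPM, a log2 fold change of 0.60 ± 0.18 (unadjusted p = 0.00789, adjusted p = 0.277). It was 0.41 with libraries scaled by total count alone, 0.34 against wildtype 1 alone, 0.54 without wildtype 2 and 0.72 without wildtype 1 (adjusted p = 0.0595). Over the 16 alternatives the adjusted p lay between 0.0595 and 0.964. In the same libraries the endothelial sum, from cells that also carry this receptor, ran 256, 231 and 146 CPM in knockout. In wildtype it ran 148, 67.0 and 55.0 CPM. The chondrocyte, macrophage and neutrophil sums given above also had the higher group mean in knockout. The part of any of these sums in the Tgfbr2 difference was not tested.

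Tgfbr1 (gene ID 21812, chr4:47353222-47414931, plus strand), the type I receptor kinase that acts on the Smad proteins, measured 64.2, 77.3 and 65.2 CPM in knockout against 69.9, 60.2 and 50.3 CPM in wildtype. The groups overlapped through wildtype 1 (0.20 ± 0.17, adjusted p = 0.565). Tgfbr3 (gene ID 21814, chr5:107106570-107289629, minus strand), the co-receptor betaglycan that presents TGF-beta2 to the signalling receptors, measured 32.6, 38.9 and 34.6 CPM in knockout against 36.7, 28.6 and 26.2 CPM in wildtype. It overlapped in the same way (0.21 ± 0.18, adjusted p = 0.540).

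The balance between the receptors can be read without any library scaling. There were 1.74, 1.55 and 1.39 Tgfbr2 counts for each Tgfbr1 count in knockout 1, 2 and 3, against 1.20, 1.11 and 1.23 in wildtype 1, 2 and 3, without overlap. The ratio of Tgfbr3 to Tgfbr2 was 0.292, 0.325 and 0.382 in knockout against 0.437, 0.430 and 0.422 in wildtype, also without overlap. Both ratios contain Tgfbr2, whose own groups were separate, so they are not independent of that difference. Tgfbr3 and Tgfbr1 had overlapping ratios, at 0.515 ± 0.0150 in knockout and 0.507 ± 0.0273 in wildtype. All count ratios among the latent binders overlapped between groups too, as did that of Tgfb3 to Tgfb1. The share of such ratios without overlap over all gene pairs was not computed. Tgfbr2 made up 45.0% ± 2.98 of the receptor signal per kb in knockout and 38.4% ± 0.946 in wildtype.

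The sequence upstream of Tgfbr2 is shown as that of the receptor with separate groups, on the same terms as above.
Tgfbr2, chr9:116175364-116175613, minus strand: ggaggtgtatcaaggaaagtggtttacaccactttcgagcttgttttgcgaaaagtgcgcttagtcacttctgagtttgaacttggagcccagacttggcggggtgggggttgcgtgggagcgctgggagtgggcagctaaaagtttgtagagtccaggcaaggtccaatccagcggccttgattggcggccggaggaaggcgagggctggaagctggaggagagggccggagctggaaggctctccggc
This window held 0 matches to each of the 4 motifs searched and had a GC content of 58.4%.

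**Figure D3:**
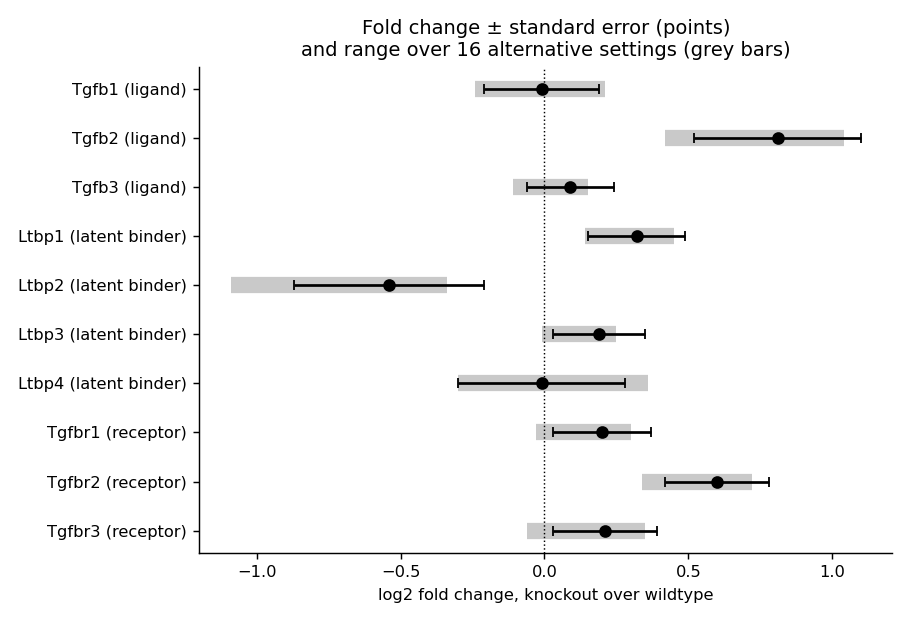
Log2 fold change of each member, knockout over wildtype, with its standard error (points and bars), and the range of the fold change over 16 alternative settings (grey). Tgfb2, Ltbp1, Ltbp2 and Tgfbr2 kept their sign in all 16, and the adjusted p was above 0.05 for every member in each of them.

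The knockout libraries were not alike in these genes. Knockout 3 had the highest Tgfb1 and Ltbp2 values of its group and the lowest Tgfb3, Ltbp1, Ltbp3, Ltbp4 and Tgfbr2 values. It also had the lowest chondrocyte (11829 CPM), endothelial (146 CPM), macrophage (167 CPM) and neutrophil (61.8 CPM) sums of its group. Its osteoblast sum was the highest of its group (351740 CPM). Its TMM factor was the lowest of all libraries (0.813), which raises its CPM. Within the wildtype group, wildtype 3 was lowest in 7 of the 10 members, with the exceptions of Tgfb1, Ltbp1 and Ltbp3.

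**Figure D4:**
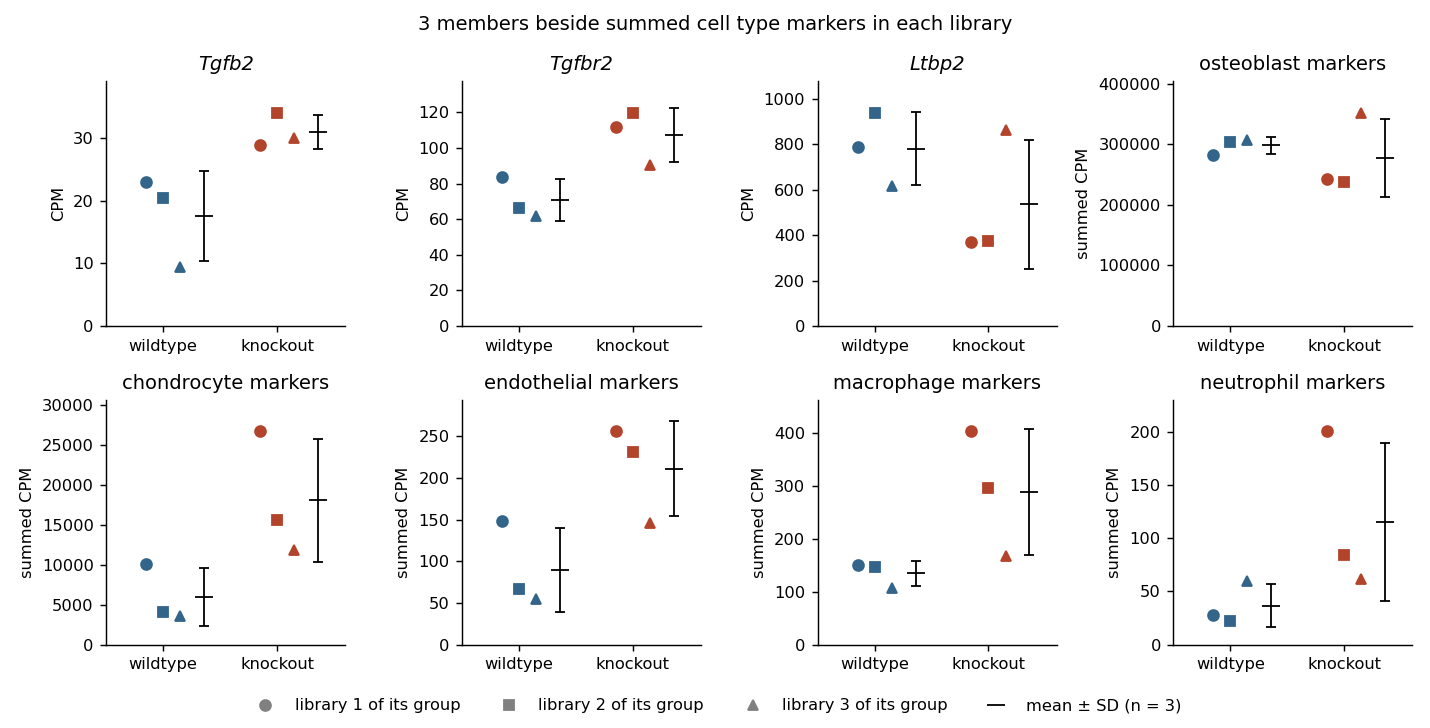
CPM of Tgfb2, Tgfbr2 and Ltbp2 and summed CPM of the osteoblast, chondrocyte, endothelial, macrophage and neutrophil markers (vertical axes, from 0) in each library, with mean and SD (n = 3). Ltbp2 and the osteoblast sum are both lowest in knockout 1 and 2, and the endothelial sum is highest in knockout 1 and 2, where Tgfbr2 is also highest.

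Other genes of the pathway were examined in 4 lists that hold 66 distinct genes, of which 65 were tested. Fold changes were positive in 54 and negative in 11, where 49.3% of all genes were positive. The median was 0.23 beside -0.01 over all genes. Since the lists were chosen with earlier results of these data known, comparisons of them with all genes, here and below, are a description. None of the 65 passed the adjusted threshold in edgeR. With an unadjusted p below 0.05, 18 were higher (8.26% of all genes) and 2 lower (6.35%), and in 16 the knockout libraries stood higher without overlap (10.6%). Without wildtype 2, 52 were positive, 12 higher (6.62% of all genes in that fit) and 1 lower at that p. Over all genes, 1659 of 13828 were at that p in either direction, 916 of them higher. With libraries scaled by total count alone, 38 of the 65 were positive, 7 higher (3.52% of all genes in that fit) and 3 lower. Over all genes, 2962 of 13505 were then at that p in either direction, 475 of them higher. The median of the 65 was 0.03 beside -0.21 over all genes.

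Genes that process and release latent TGF-beta were mostly positive, at 14 of 15 tested (median 0.22). Of these, 5 were higher at an unadjusted p under 0.05, where 8.26% of all genes were. Mmp9, a metalloproteinase of osteoclasts and other cells that can free TGF-beta from matrix, measured 204, 177 and 172 CPM in knockout against 120, 72.1 and 83.3 CPM in wildtype (1.00 ± 0.21, adjusted p = 0.273). Thrombospondin-1 (Thbs1), a matrix protein that activates latent TGF-beta, measured 1147, 1146 and 1260 against 1025, 547 and 653 CPM (0.68 ± 0.24, adjusted p = 0.302). The transglutaminase Tgm2, which crosslinks latent complexes into matrix, measured 34.7 ± 8.24 against 20.03 ± 1.47 CPM (0.79 ± 0.19), and these 3 genes did not overlap between groups. Nrros, which tethers latent TGF-beta on macrophages, had overlapping groups (6.80 ± 2.51 against 3.26 ± 1.05 CPM, 1.05 ± 0.35), beside a macrophage sum of 167 to 403 against 107 to 151 CPM. The part of these other cells in the list was not tested. Itgb6, a subunit of the TGF-beta-activating integrin of epithelia, had 1 count in knockout 2 and 0 elsewhere and was not tested.

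Matrix partners of the latent complex were positive in 11 of 13 (median 0.33), 3 of them at an unadjusted p under 0.05 (8.26% of all genes). The fibrillins, the microfibril proteins to which latent binders attach, measured 229 ± 78.8 against 135 ± 54.9 CPM for Fbn1 (0.76 ± 0.33, adjusted p = 0.338) and 95.4 ± 37.6 against 45.7 ± 22.0 CPM for Fbn2 (1.06 ± 0.37, adjusted p = 0.293). The fibulin gene Fbln2 measured 148 ± 50.6 against 76.9 ± 19.2 CPM (0.94 ± 0.28, adjusted p = 0.277). In these 3 genes knockout 3 lay below wildtype 1, so the groups overlapped. Fmod, a TGF-beta-binding proteoglycan, measured 494 ± 84.9 against 362 ± 57.5 CPM (0.45 ± 0.20).

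Among signalling components, the Smad genes that carry the signal had small differences, with Smad2 at 0.07 ± 0.17, Smad3 at 0.18 ± 0.15 and Smad4 at -0.11 ± 0.15. The corepressor Tgif1 measured 47.9, 43.4 and 22.6 CPM in knockout against 23.9, 18.6 and 14.03 CPM in wildtype (1.01 ± 0.29, adjusted p = 0.273). The corepressor Skil measured 109.9 ± 23.4 against 69.1 ± 21.6 CPM (0.67 ± 0.25) and the inhibitory Smad7 54.1 ± 11.5 against 38.6 ± 7.39 CPM (0.49 ± 0.21), all 3 with knockout 3 below wildtype 1. Tab1, an adaptor of the kinase TAK1, was the one gene of the 65 that lay lower in every knockout library (17.7 ± 2.29 against 24.6 ± 4.22 CPM, -0.48 ± 0.19, adjusted p = 0.315). Over the list 16 of 20 were positive (median 0.19), with 5 higher (8.26% of all genes) and 1 lower (6.35%) by unadjusted p.

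Genes known to respond to TGF-beta, many of which answer to other signals too, were positive in 16 of 20 (median 0.32). By unadjusted p, 8 were higher (8.26% of all genes) and 1 lower (6.35%). Some genes, such as Smad7 and Skil, are in both this list and that of signalling components and count in each. Klf10, the TGF-beta-inducible early gene, measured 103.8, 105.5 and 88.7 CPM against 77.2, 70.0 and 45.6 CPM (0.63 ± 0.21, adjusted p = 0.288). Il11, a cytokine gene, had 33, 22 and 11 counts in knockout against 10, 0 and 4 in wildtype. Of the other genes in this list, Bhlhe40 stood at 0.73 ± 0.28, Junb at 0.54 ± 0.22 and Pmepa1 at 0.49 ± 0.21. Tgfbi stood at 0.21 ± 0.17, Ccn2 at 0.21 ± 0.21 and the periostin gene Postn at 0.01 ± 0.23. The smooth muscle actin gene Acta2, at -0.43 ± 0.18, was among the 4 of 20 with negative differences. The endothelial, chondrocyte, macrophage and neutrophil marker sums given above had the higher group mean in knockout, and their part in this list was not tested.

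**Figure D5:**
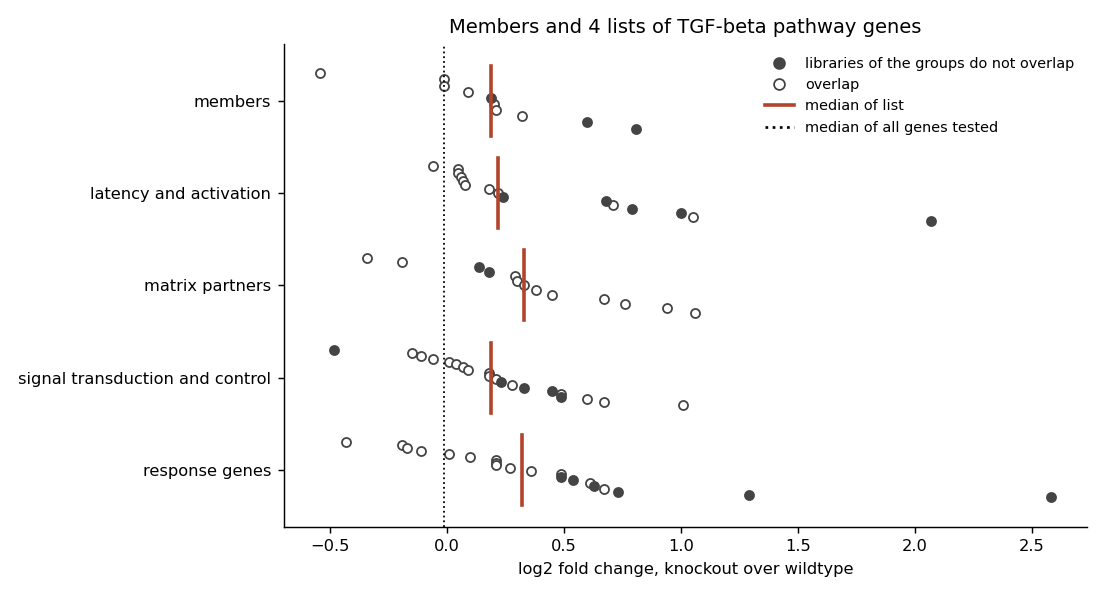
Log2 fold change, knockout over wildtype, of the 10 members and of the tested genes in the 4 pathway lists (1 point per gene), with the median of each list (red) and of all genes tested (dotted, -0.01). Filled points are genes whose groups do not overlap, and list medians lie between 0.19 and 0.33.

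For the member of smallest p in each role, the genes nearest in pattern were sought among 9617 named genes averaging 5 CPM or more, by Pearson's r of log2 CPM over the 6 libraries. Since these genes were picked for their likeness, r is a description. Nearest to Tgfb2 were the hyaluronan synthase gene Has1 (r = 0.998), Plk3 (0.997) and the Wnt receptor gene Fzd5 (0.996). Has1 measured 17.1, 27.2 and 18.3 CPM in knockout against 10.7, 8.90 and 1.07 CPM in wildtype, with wildtype 3 far lowest as for Tgfb2. Nearest to Tgfbr2 were the potassium channel subunit gene Kcne4 (0.996) and Ube2o (0.992), and Kcne4 measured 18.7, 22.6 and 12.1 CPM against 10.9, 7.65 and 6.39 CPM. Nearest to Ltbp1 were E2f6 (0.999), Khdc4 (0.993) and Fstl1 (0.988). Spearman's rho was 1 for each of these named genes, and without the 2 libraries farthest from the median of each member r was 0.913 to 0.999.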

How the data were processed

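Reads were counted per gene by the authors, and the deposited values are raw counts, whole numbers without normalization, in 1 table of 27179 Entrez gene IDs and 6 libraries. The tools were CASAVA 1.7, Subread and featureCounts with build mm10, per the submitters' processing notes. Annotation, strand use and treatment of multi-mapping reads: not given in the sources used here. If strand was not used, reads of opposite-strand genes that overlap a member's exons cannot be told apart from its own. In GENCODE M21 these include the antisense genes Gm29491 (Tgfb2) and D030025P21Rik (Ltbp2), and Gm37804 and Gm48008 (Tgfb3). Gm43422 overlaps Tgfbr3 on the same strand, where use of strand would not separate the reads.

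IDs were named from the RefSeq table of GRCm38.p6, the same assembly, and from GENCODE M21 (93.1% named, all members and list genes included). Coordinates, merged exon lengths and longest transcripts came from GENCODE M21. The comparison used edgeR 4.0.16 in R 4.3.3 (filterByExpr, TMM factors of 0.813 to 1.09, two-sided quasi-likelihood test, Benjamini-Hochberg adjustment over 13505 genes, threshold 0.05), without covariates, on all 6 libraries. The same fit was run on counts simulated with the same dispersion for every gene, a simpler setting than these libraries. Values are CPM after TMM scaling. Fold changes are log2 of knockout over wildtype ± standard error, and other errors are SD (n = 3). All pairs of libraries differed by more than sampling noise (chi-square per degree of freedom 18.3 to 139).

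The text names all members, Cdc73, up to 4 genes of smallest p per list and the 3 genes nearest in pattern to the member of smallest p in each role. Col1a1, Col1a2, Sp7, Dmp1, Itgb6, Smad2, Smad3, Smad4, Bhlhe40, Junb, Pmepa1, Acta2, Tgfbi, Ccn2 and Postn were picked with their values in view. A few selected items are not reported here. The members and lists were chosen with earlier results of these data known. Alternatives were DESeq2 size factors, upper-quartile factors, total count alone, no filter, a stricter filter (3 or more libraries at 1 CPM or above), limma 3.58.1 voom, DESeq2 1.42.0, the replicate number as a block, removal of the most abundant unnamed ID, wildtype 1 as sole control and each library left out in turn.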

Additional observations from a re-analysis of the deposited data

How the results depend on the processing

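None of the 10 members passed the adjusted threshold in any of the 16 alternatives. Over all genes, 24 passed with no filter on low counts, 248 with the DESeq2 test and 236 in the fit with a replicate block. Fits without 1 library each gave 0 to 409 calls, the highest without wildtype 1. Of the pathway genes, 1 of 66 was then called without the filter, against 0.121% of all genes. DESeq2 called 5 of 65 (among them Tgif1, Tgm2, Mmp9 and Fbln2), against 1.84%. With the block 3 of 65 were called (among them Tgif1 and Mmp9), against 1.75%. Without wildtype 1, 3 of 65 were called (among them Thbs1 and Mmp9), against 2.96%. The labels give no pairing for the replicate numbers shared by the groups. Deviations of same-numbered libraries from their group means correlated at 0.12, -0.07 and 0.22. Without differently numbered libraries for comparison, these values cannot decide whether the libraries are paired. With the block Tgfb2 stood at 0.90 (adjusted p = 0.111), Tgfbr2 at 0.60 (adjusted p = 0.147) and Ltbp4 at 0.09.

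Signs turned in 1 or more alternatives for Tgfb1, Tgfb3, Ltbp3, Ltbp4, Tgfbr1 and Tgfbr3, whose main log2 fold changes lay between -0.01 and 0.21. With libraries scaled by total count alone, Tgfb3 stood at -0.11, Ltbp3 at -0.01 and Tgfbr1 at -0.01. With limma voom Ltbp4 stood at 0.09. Against wildtype 1 alone, assumed to vary like the knockout libraries, Tgfb1 stood at 0.21, Ltbp4 at 0.03, Tgfbr1 at -0.03 and Tgfbr3 at -0.06. Leaving out each library in turn gave -0.22 to 0.11 for Tgfb1 and -0.30 to 0.36 for Ltbp4. The cause was not tested. Without wildtype 1, 5 of 10 members had no overlap and were higher, against 23.1% of all genes. Without knockout 3, 4 members had an unadjusted p under 0.05, as did 1806 of 13917 genes. The members had at least 157 counts in every library, and whether depth limited the calls was not tested.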
